A study of Mus musculus with 23 samples.

Results

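The 4 genes described here encode the first steps of glucose use by a cell. They were taken as a named list, Slc2a1, Slc2a3, Hk1 and Hk2, and all 4 were found among the 19938 genes measured. The list was read as gene symbols in the platform's annotation, and for a gene with several transcript clusters (groups of probes summarised as 1 value) the brightest on average was used. Slc2a1 and Slc2a3 encode GLUT1 and GLUT3, transporters that let glucose cross the plasma membrane down its gradient. Hk1 and Hk2 encode hexokinases, which phosphorylate glucose to glucose 6-phosphate and so keep it in the cell. Slc2a1 and Hk2 are known targets of hypoxia-inducible factors, GLUT1 is the main glucose transporter of many endothelial cells, and HK2 is often high in tumours.

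The study concerned resistance to anti-angiogenic therapy and the metabolism of the cells of the tumour. Py2T, a murine breast cancer cell line, was grown in the mammary fat pad of female FVB/N mice, and tumour cells and endothelial cells were sorted from the same kind of tumour by fluorescence. Nintedanib, an inhibitor of VEGF, FGF and PDGF receptor kinases, was given at 50 mg per kg body weight. There were 3 endothelial samples from mice treated for 7 d (short-term), 5 from mice treated for 21 d (long-term) and 3 from untreated mice. There were 4 tumour cell samples from 7 d of treatment, 5 from 21 d and 3 untreated ones. All groups shared the cell line, the strain and the graft site. Size matching of untreated tumours was to those treated for 21 d, so the 7 d groups have no untreated group of their own size. The sources used here give neither the age of the mice nor the sorting markers, and Py2T tumours of 1 line limit the tumour model to that line.

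Each of the 23 samples gave 1 array, and the labels call those of a group biological replicates. Values are log2 signals, on which 1 unit is a doubling. The median gene lay between 4.75 and 4.88 on the arrays, and the lowest correlation between arrays of 1 group was 0.983 in tumour cells and 0.935 in endothelial cells. All 10 endothelial markers, Pecam1 and Cdh5 among them, were higher in endothelial cells than in tumour cells in each treatment state, and their mean was 10.26 to 10.86 on endothelial arrays and 3.86 to 4.22 on tumour arrays. Epithelial markers were less separate: their mean was 5.63 to 8.09 on endothelial arrays and 7.03 to 7.70 on tumour arrays. Krt8, a keratin, averaged 9.12, 9.48 and 8.91 in endothelial cells at 7 d, at 21 d and untreated, against 11.37, 11.49 and 11.365 in tumour cells. Krt8, Krt14 and Krt18 passed as lower in endothelial cells in all 3 states, and Cdh1 at 7 d and at 21 d. Epcam, Krt5, Krt7 and Krt19 passed in none. The epithelial marker Epcam was below the median gene in both cell types, with group means of 4.29 to 4.71. Fibroblast and pericyte markers averaged 6.56 to 7.74 on endothelial and 7.025 to 7.46 on tumour arrays. Of these 8, Dcn, Pdgfra and Pdgfrb passed as higher in tumour cells and Rgs5 as higher in endothelial cells in all 3 states. Dcn had group means of 12.77 to 12.95 in tumour cells. Rgs5 averaged 8.59, 6.62 and 6.93 in endothelial cells at 7 d, at 21 d and untreated. Macrophage markers were highest on 3 endothelial arrays, with means of 7.26 and 6.77 on replicates 3 and 4 at 21 d and 7.26 on untreated replicate 1.

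The promoters of the genes are shown because hypoxia-inducible factors bind a short core, ACGTG or GCGTG, that can be looked for there. RefSeq windows of GRCm38.p6, from 250 bases before to 50 bases from the start site, were found for 3 of the 4 genes. Capitals mark each core on either strand, so that CACGT and CACGC are cores read on the other strand. Slc2a1 lies at chr4:119108495-119108794 on the plus strand and Hk2 at chr6:82774405-82774704 on the minus strand. Hk1 has 2 windows on the minus strand, at chr10:62379859-62380158 and chr10:62340372-62340671, 1 for each of 2 start sites.
Slc2a1: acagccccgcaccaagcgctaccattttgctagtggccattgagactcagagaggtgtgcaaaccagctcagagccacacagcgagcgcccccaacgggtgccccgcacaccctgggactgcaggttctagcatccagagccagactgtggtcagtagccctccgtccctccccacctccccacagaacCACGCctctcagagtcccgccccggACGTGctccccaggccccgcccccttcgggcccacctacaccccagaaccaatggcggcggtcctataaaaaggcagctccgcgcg
Hk2: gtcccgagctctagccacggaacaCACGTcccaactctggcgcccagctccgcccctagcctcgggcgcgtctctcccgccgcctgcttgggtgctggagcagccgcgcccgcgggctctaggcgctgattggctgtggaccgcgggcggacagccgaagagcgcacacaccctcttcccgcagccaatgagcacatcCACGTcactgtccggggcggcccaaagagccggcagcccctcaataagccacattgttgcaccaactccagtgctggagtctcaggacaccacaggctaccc
Hk1, first start site: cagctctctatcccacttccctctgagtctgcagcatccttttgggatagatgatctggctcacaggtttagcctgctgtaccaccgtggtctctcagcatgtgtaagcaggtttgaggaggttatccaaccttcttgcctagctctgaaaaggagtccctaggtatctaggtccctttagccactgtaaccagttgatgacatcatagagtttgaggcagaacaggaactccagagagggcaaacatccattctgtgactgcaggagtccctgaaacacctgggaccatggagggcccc
Hk1, other start site: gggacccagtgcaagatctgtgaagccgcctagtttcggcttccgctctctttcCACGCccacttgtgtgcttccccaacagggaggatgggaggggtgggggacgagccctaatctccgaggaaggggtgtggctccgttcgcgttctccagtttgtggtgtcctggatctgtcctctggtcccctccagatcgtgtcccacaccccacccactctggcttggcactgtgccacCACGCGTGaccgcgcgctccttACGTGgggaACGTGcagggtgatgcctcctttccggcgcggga
The Slc2a1 window held 2 cores, GCGTG on the other strand at -61 and ACGTG at -36 from the start site. The Hk2 window held 2 cores, both ACGTG on the other strand, at -226 and -52. The first Hk1 window held 0 and the other 5, of which those at -15 and -12 overlap. The E-box CACGTG, a site for MYC and related factors, was in none of the 4 windows. Such matches are common: 43.8% of the 32851 RefSeq windows held ACGTG or GCGTG, and 7.2% held CACGTG, which itself contains ACGTG.

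Of the 24 treatment tests of the genes (4 genes, 6 comparisons) 0 passed limma's test at an adjusted p under 0.05, and 4 had an unadjusted p under that level. The share of all genes called was 0.507% at 7 d and 0.0903% at 21 d against untreated tumour cells and 1.22% between 21 d and 7 d there. In endothelial cells the share called was 0% at 7 d and 0% at 21 d against untreated cells and 0% between 21 d and 7 d. There 1629, 833 and 1875 genes (8.17%, 4.18% and 9.40%) had an unadjusted p under 0.05. In tumour cells 2198, 2020 and 2365 of the 19938 genes had an unadjusted p under 0.05 by limma, with the comparisons in the same order. The unadjusted counts of the 4 genes and of the lists below are to be read against the numbers for the same cell type. Few genes of any kind passed in these comparisons, so the count of 0 is no result about these genes. In sorted samples, fewer cells of a type and less RNA per cell cannot be told apart.

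Slc2a1 was the gene with the largest differences after treatment, and they were in endothelial cells. Its log2 signal there was 9.23, 9.30 and 11.32 at 7 d, 9.19, 10.04, 9.17, 9.43 and 9.90 at 21 d, and 8.88, 8.49 and 8.89 in untreated cells. Every treated endothelial array lay above every untreated one, and 7 d replicate 3 stood far above the rest. The share of all genes whose groups did not overlap was 13.8% at 7 d and 3.51% at 21 d against untreated cells, and 5.90% between 21 d and 7 d. Macrophage markers moved with the treatment groups in endothelial cells: their mean was 4.49 to 4.96 at 7 d, 4.96 to 7.26 at 21 d and 5.30 to 7.26 untreated, so that 7 d and untreated arrays did not overlap. At 7 d minus untreated 10 of the 12 markers were below 0, with a median difference of -1.22, and at 21 d minus 7 d 12 of 12 were above 0, with a median of 1.25, although 0 passed limma's test (3 and 2 at an unadjusted p under 0.05). The Slc2a1 difference from untreated cells was 1.19 ± 0.49 at 7 d (SE, 2.29-fold, unadjusted p = 0.0346, limma adjusted p = 0.603) and 0.79 ± 0.44 at 21 d (1.73-fold, adjusted p = 1.00). The 95% interval of the fold ran from 1.08 to 4.87 at 7 d and from 0.880 to 3.40 at 21 d. With the macrophage marker mean as a covariate, Slc2a1 differed from untreated endothelial cells by 1.14 at 7 d (adjusted p = 0.963) and 0.79 at 21 d. At 7 d this covariate cannot be told apart from treatment, because it did not overlap between the groups. Without 7 d replicate 3, the difference at 7 d was 0.51 (adjusted p = 0.758), and that between 21 d and 7 d was 0.28, against -0.40 ± 0.44 with it.

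On that array the endothelial markers averaged 10.63, the macrophage markers 4.76 and the red cell and platelet markers 4.53, each between the values of the other 2 arrays of its group. Its epithelial markers, at 6.62 against 6.06 and 6.28, and its fibroblast and pericyte markers, at 7.43 against 7.28 and 7.07, were the highest of the group, and its neutrophil markers, at 4.05 against 5.87 and 4.36, the lowest. Immediate early genes, which cell isolation can induce, averaged 8.70 to 9.13 at 7 d, 8.55 to 9.20 at 21 d and 7.95 to 8.38 in untreated endothelial cells, so they too were higher on every treated array. With their mean as a covariate, Slc2a1 differed from untreated endothelial cells by 1.91 at 7 d (adjusted p = 0.558) and 1.54 at 21 d (adjusted p = 0.784). Because this covariate did not overlap between treated and untreated arrays, it cannot be told apart from treatment.

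In tumour cells the Slc2a1 signal was 8.97, 8.95, 8.73 and 8.79 at 7 d, 8.86, 9.11, 8.83, 8.80 and 8.76 at 21 d, and 8.72, 8.15 and 8.84 in untreated cells. The groups overlapped, and untreated replicate 2 was the lowest array. The differences from untreated cells were 0.29 ± 0.15 at 7 d (adjusted p = 0.513) and 0.30 ± 0.14 at 21 d (adjusted p = 0.503), with 95% intervals of -0.03 to 0.61 and -0.01 to 0.61. The treatment effect on Slc2a1 was larger in endothelial than in tumour cells by 0.90 ± 0.51 at 7 d (adjusted p = 0.530) and 0.49 ± 0.47 at 21 d (adjusted p = 0.989), neither past the threshold. The value at 7 d includes endothelial 7 d replicate 3, without which the endothelial difference was smaller, as given above. Over all genes, 0.0953% passed that test of the difference between cell types at 7 d and 0% at 21 d, where 1063 had an unadjusted p under 0.05.

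**Figure D1:**
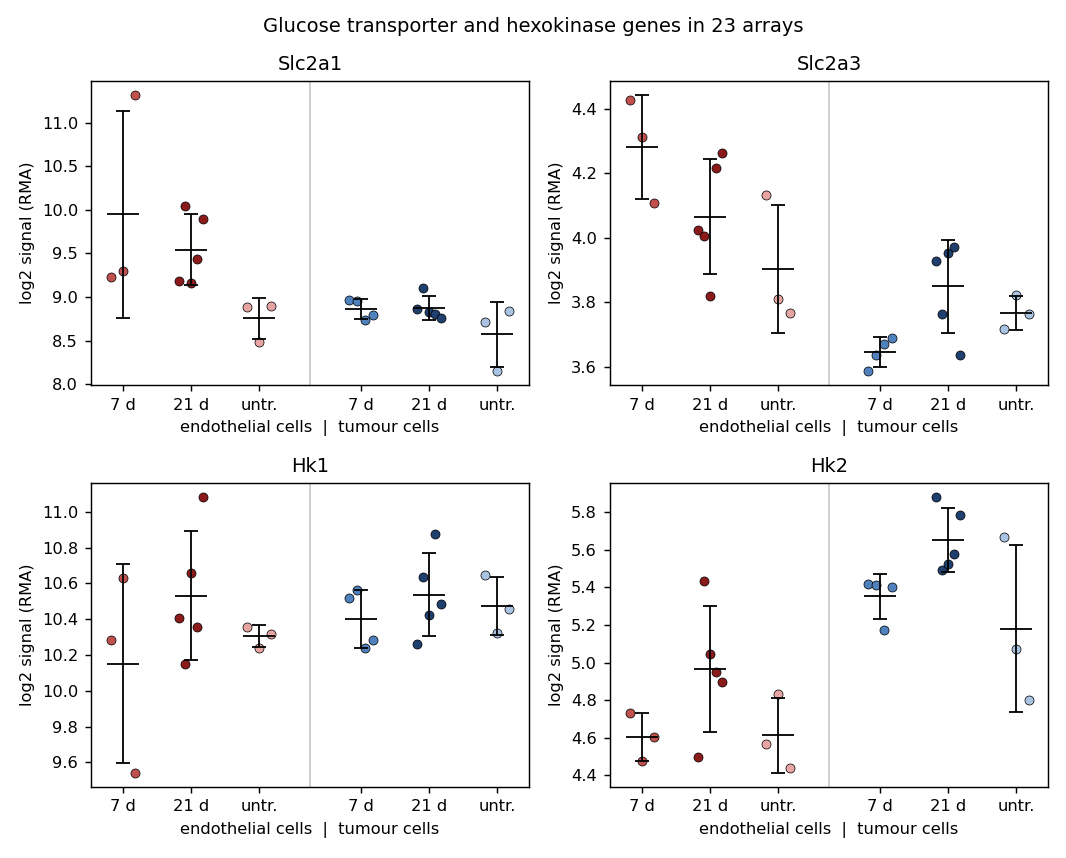
Log2 signal of each gene on the 23 arrays, with 1 panel per gene, groups along the horizontal axis (endothelial cells left, tumour cells right; 7 d, 21 d and untreated) and the signal on the vertical axis. Points are arrays, long bars group means and whiskers SD; the vertical axes differ between panels. One endothelial array at 7 d reaches 11.32 for Slc2a1, and at 7 d and at 21 d every endothelial array lies below every tumour array for Hk2, while the untreated groups overlap. Of all genes, 44.3% at 7 d and 23.5% at 21 d did not overlap between the cell types.

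Slc2a3, whose product has a high affinity for glucose and is the main transporter of neurons, was dim. Its group means lay between the 26.8th and the 37.3rd percentile of all genes, below the median gene on every array, where differences rest on little signal. In endothelial cells its signal was 4.43, 4.31 and 4.11 at 7 d, 4.02, 4.005, 3.82, 4.22 and 4.26 at 21 d, and 4.13, 3.81 and 3.77 in untreated cells. The groups overlapped, although 2 of the 3 arrays at 7 d lay above all untreated ones. The difference at 7 d was 0.38 ± 0.15 (1.30-fold, unadjusted p = 0.0335, adjusted p = 0.598) and at 21 d 0.16 ± 0.14 (adjusted p = 1.00).

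In tumour cells Slc2a3 was 3.59, 3.64, 3.67 and 3.69 at 7 d, 3.93, 3.76, 3.95, 3.97 and 3.63 at 21 d, and 3.72, 3.82 and 3.76 in untreated cells. All arrays at 7 d lay below all untreated ones, a separation that 10.2% of all genes showed in that comparison, against 6.03% for 21 d and untreated and 5.34% for 21 d and 7 d. The difference at 7 d was nevertheless small, -0.12 ± 0.09 (adjusted p = 0.686), and that between 21 d and 7 d was 0.20 ± 0.08 (unadjusted p = 0.0202, adjusted p = 0.286). The effect at 7 d was higher in endothelial than in tumour cells by 0.50 ± 0.17 (unadjusted p = 0.00771, adjusted p = 0.315), and at 21 d by 0.08 ± 0.16 (adjusted p = 0.994).

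For Hk1, the hexokinase of most tissues, the brighter of 2 clusters was used, annotated through 1 accession, so that its values may not be those of Hk1 alone. That cluster was bright in every group, with means at the 98.3rd to 98.8th percentile of all genes. In endothelial cells its signal was 10.28, 10.63 and 9.54 at 7 d, 10.41, 10.15, 10.66, 10.36 and 11.08 at 21 d, and 10.36, 10.24 and 10.32 in untreated cells. In tumour cells it was 10.52, 10.56, 10.24 and 10.28 at 7 d, 10.26, 10.64, 10.42, 10.88 and 10.48 at 21 d, and 10.65, 10.32 and 10.46 in untreated cells. All groups overlapped, and the lowest array was the endothelial one with the highest Slc2a1. Differences from untreated endothelial cells were -0.15 ± 0.29 at 7 d and 0.23 ± 0.26 at 21 d, and from untreated tumour cells -0.08 ± 0.14 at 7 d and 0.06 ± 0.13 at 21 d, with limma adjusted p of 0.897, 1.00, 0.918 and 0.913. The effect differed between the cell types by -0.08 ± 0.32 at 7 d and 0.17 ± 0.29 at 21 d. The 95% interval of the fold at 21 d was 0.790 to 1.73 in endothelial cells and 0.852 to 1.28 in tumour cells.

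The cluster used for Hk1 was annotated through 1 accession, with no RefSeq transcript among them, whereas the other Hk1 cluster carried 8 accessions, 4 of them RefSeq transcripts. That other cluster was dimmer, with group means of 7.58 to 7.71, and was examined after the data had been seen. Over arrays, the clusters correlated with r = 0.54 in 11 endothelial and 0.334 in 12 tumour arrays. Both clusters were read on the same arrays, so these correlations cannot show whether both measure Hk1. By that cluster, the difference from untreated tumour cells was 0.07 at 7 d, with the sign opposite to that of the cluster used, and the endothelial difference at 7 d was 0.02.

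**Figure D2:**
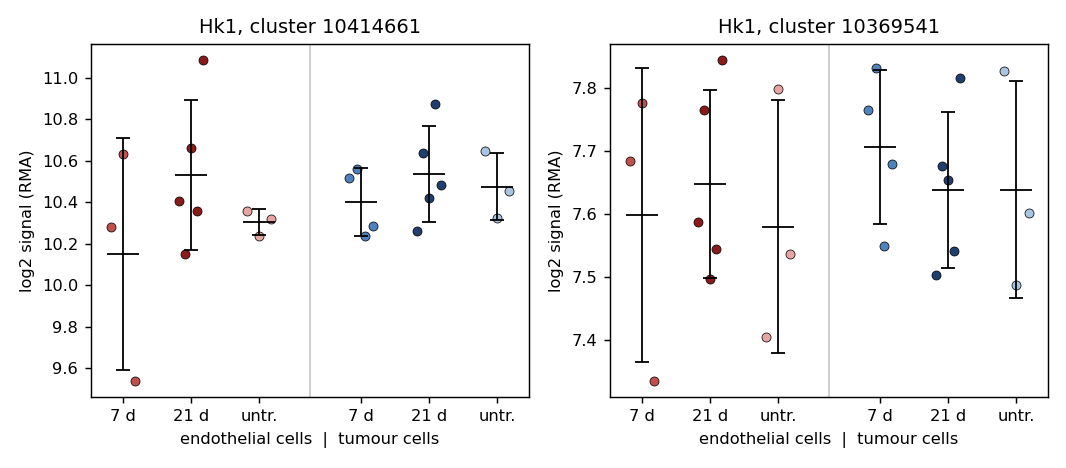
Log2 signal of Hk1 by its 2 transcript clusters, the brighter one used here at left and the one with RefSeq transcripts at right, for the same groups, with arrays as points, means as long bars and SD as whiskers. Groups overlap in both panels, and the array lowest at left, endothelial 7 d replicate 3 (9.54), is also the lowest at right.

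Hk2, the inducible isoform found in muscle, fat and many tumours, was near the median gene, at the 44.5th to 59.6th percentile. In tumour cells its signal was 5.42, 5.41, 5.17 and 5.40 at 7 d, 5.88, 5.49, 5.52, 5.58 and 5.79 at 21 d, and 5.67, 5.07 and 4.80 in untreated cells. Every array at 21 d lay above every array at 7 d, while the untreated arrays spread over both. The difference from untreated cells was 0.47 ± 0.17 at 21 d (1.39-fold, 95% interval 1.08 to 1.78, unadjusted p = 0.0144, adjusted p = 0.369) and 0.17 ± 0.17 at 7 d (adjusted p = 0.806). The direction at 7 d was not settled: Hk2 differed by -0.0172 without untreated replicate 3. With immediate early genes as a covariate Hk2 differed by -0.30. Their mean, however, did not overlap between 7 d (9.37 to 9.80) and untreated tumour cells (8.68 to 9.05), so covariate and treatment cannot be told apart. The Hk2 difference between 21 d and 7 d was 0.30 ± 0.15 (adjusted p = 0.487).

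In endothelial cells Hk2 was 4.73, 4.47 and 4.61 at 7 d, 4.50, 5.43, 5.05, 4.95 and 4.89 at 21 d, and 4.56, 4.83 and 4.44 in untreated cells. Of the arrays at 21 d, 4 of 5 lay above all untreated ones and replicate 1 among them. The differences from untreated cells were -0.01 ± 0.21 at 7 d and 0.35 ± 0.19 at 21 d (adjusted p = 1.00). The difference of the effect between cell types was -0.18 ± 0.28 at 7 d (adjusted p = 0.832) and -0.12 ± 0.26 at 21 d (adjusted p = 0.994). The interval at 21 d, -0.66 to 0.42, contains both a larger and a smaller endothelial effect.

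**Figure D3:**
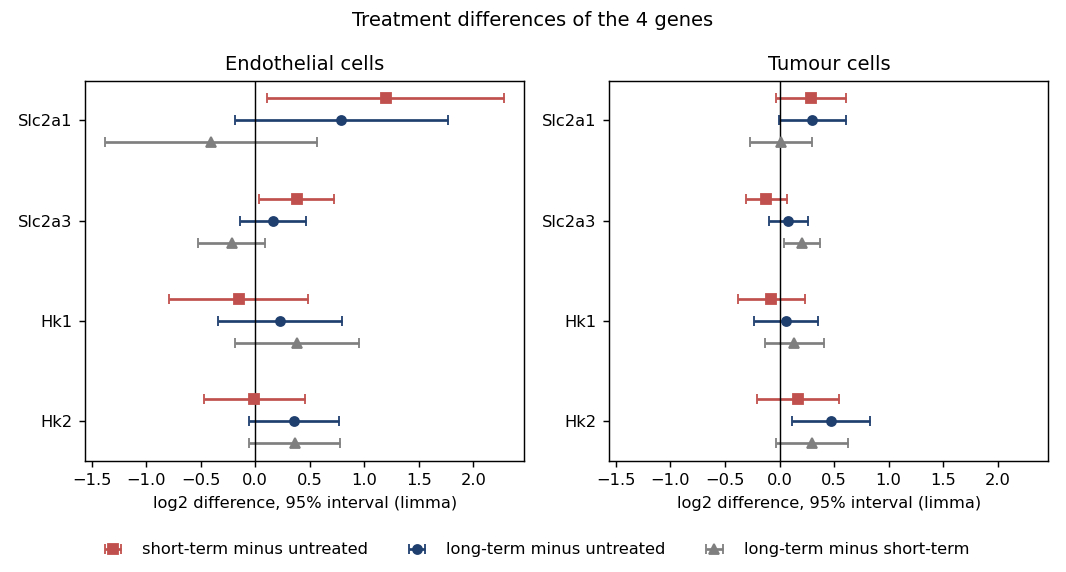
Log2 differences of the 4 genes between treatment groups, by limma, with 95% intervals, for endothelial cells (left) and tumour cells (right); squares are 7 d minus untreated, circles 21 d minus untreated and triangles 21 d minus 7 d. The widest intervals are those of Slc2a1 in endothelial cells, and 0 of the 24 differences passed the adjusted threshold.

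Between the cell types the genes differed in opposite directions. Endothelial cells had more Slc2a1 and Slc2a3 and less Hk2 than tumour cells at 7 d, where 3 of the 4 genes passed, against 40.0% of all genes. At 21 d 1 of 4 passed, against 32.0%, and in untreated cells 0 of 4, against 18.3%. The median difference of the 4 genes was 0.19 at 7 d, 0.11 at 21 d and -0.02 untreated, and that of all genes 0.11, 0.06 and 0.03.

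Hk2 was lower in endothelial cells, with differences of -0.75 ± 0.19 at 7 d (0.595-fold, adjusted p = 0.00466) and -0.69 ± 0.16 at 21 d (0.621-fold, adjusted p = 0.00226). At 7 d and at 21 d no endothelial array reached the tumour arrays. Such separations were common: the cell types did not overlap for 44.3% of all genes at 7 d and 23.5% at 21 d. The untreated difference was -0.57 ± 0.20 (adjusted p = 0.0581), and it passed with renewed quantile normalization (adjusted p = 0.0318). It passed as well with a filter at the 30th percentile, array weights or median centring, without tumour untreated replicate 3, at -0.76, and without endothelial 21 d replicate 1 or 2. With every other alternative, among them leaving out any other array, it did not pass. At 7 d the call was lost with immediate early genes as a covariate (-0.44, adjusted p = 0.203). Their mean did not overlap between endothelial (8.70 to 9.13) and tumour cells (9.37 to 9.80) at 7 d, so covariate and cell type cannot be told apart. Slc2a3 was higher in endothelial cells at 7 d by 0.64 ± 0.12 (1.56-fold, adjusted p = 3.04e-04), and differed by 0.22 ± 0.10 at 21 d (adjusted p = 0.0893) and 0.14 ± 0.12 untreated (adjusted p = 0.505). At 21 d it passed without endothelial 21 d replicate 3, at 0.28 (adjusted p = 0.0301).

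Slc2a1 was higher in endothelial cells at 7 d by 1.09 ± 0.35 (2.13-fold, adjusted p = 0.0190), and here 1 array decides the call. Without 7 d replicate 3 the difference was 0.40 (adjusted p = 0.172). With immediate early genes as a covariate, which did not overlap between the cell types at 7 d, the difference was 0.75 (adjusted p = 0.258). At 21 d the difference was 0.67 ± 0.29 (adjusted p = 0.0807), and every endothelial array lay above every tumour array. For 23.5% of all genes the cell types did not overlap at 21 d. Without that 7 d array in the shared fit, the adjusted p at 21 d was 0.00385. In untreated cells the difference was 0.18 ± 0.37 (adjusted p = 0.797). Hk1 differed by -0.25 ± 0.22 at 7 d, -0.0046 ± 0.18 at 21 d and -0.17 ± 0.23 in untreated cells, with adjusted p of 0.363, 0.987 and 0.682.

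Ordered by group mean, Slc2a1 ran from endothelial cells at 7 d (9.95 ± 1.19, SD) and 21 d (9.55 ± 0.41) to tumour cells at 21 d (8.87 ± 0.14) and 7 d (8.86 ± 0.12), untreated endothelial cells (8.75 ± 0.23) and untreated tumour cells (8.57 ± 0.37). Of these neighbours, only endothelial cells and tumour cells at 21 d lay apart without overlap. Slc2a3 ran from 4.28 ± 0.16 in endothelial cells at 7 d to 3.65 ± 0.05 in tumour cells at 7 d, and only that last group lay apart from its neighbour, untreated tumour cells (3.77 ± 0.05). Hk2 ran from 5.65 ± 0.17 in tumour cells at 21 d to 4.60 ± 0.13 in endothelial cells at 7 d, with the first group alone apart from its neighbour. For Hk1 all neighbours overlapped, between 10.54 ± 0.23 in tumour cells at 21 d and 10.15 ± 0.56 in endothelial cells at 7 d.

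The balance of the isoforms was measured within each array, as Hk2 minus Hk1 and as Slc2a3 minus Slc2a1. In 18 exact two-sided permutation tests over samples 0 passed after Benjamini-Hochberg adjustment and 2 had an unadjusted exact p under 0.05, and 3 arrays against 3 cannot give a p below 0.1. Relative to Slc2a1, Slc2a3 in endothelial cells differed by -0.63 between 21 d and untreated (-5.48 ± 0.36 and -4.85 ± 0.24, SD, n = 5 and 3, exact p = 0.0357, adjusted p = 0.321). At 21 d it differed by -0.46 between endothelial and tumour cells (-5.48 ± 0.36 and -5.02 ± 0.21, n = 5 each, exact p = 0.0317, adjusted p = 0.321). The Hk2 to Hk1 balance at 21 d differed by -0.68 between endothelial and tumour cells (-5.57 ± 0.56 and -4.88 ± 0.36, n = 5 each, exact p = 0.0556, adjusted p = 0.333). The balance of the hexokinases rests on the Hk1 cluster with 1 accession, and may not measure Hk1 alone. Only the change of such a difference can be read, because signals of different probes are not comparable.

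Over all arrays of a cell type, no pair of the 4 genes correlated above 0.328. Correlations between pairs of them, over 12 tumour arrays that include all treatment groups, were between -0.164 (Slc2a1 with Slc2a3) and 0.328 (Slc2a1 with Hk1), and over 11 endothelial arrays between -0.453 (Slc2a1 with Hk1) and 0.281 (Slc2a1 with Slc2a3). The endothelial values rest in part on 7 d replicate 3, highest in Slc2a1 and lowest in Hk1. Without it, over 10 arrays, the highest pair was Slc2a1 with Hk2 at 0.584, against 0.185 with it. Slc2a1 with Slc2a3 was then 0.428 and Slc2a1 with Hk1 0.348, while Slc2a3 with Hk2 was -0.099 and Hk1 with Hk2 -0.083. Taken as deviations from group means, over 11 arrays, Slc2a1 with Hk2 was 0.177, with Hk1 -0.589 and with Slc2a3 -0.203. Slc2a3 with Hk1 was 0.432 in that form. The genes most like Slc2a1 in tumour cells were Ddx27 (r = 0.959), Plekho2 (0.931) and Tspyl2 (0.926), and in endothelial cells Slc25a15 (0.939), Nsmf (0.896) and Cep44 (0.891). For Hk2 they were Poll (0.930), Tm2d2 (0.913) and Tcea1 (0.913) in tumour cells and Zfp317 (0.912), Trib3 (0.898) and Lif (0.874) in endothelial cells. For Slc2a3 they were H2bc14 (0.893), Foxm1 (0.891) and Racgap1 (0.887) in tumour cells and Hmgxb3 (0.913), Cars (0.900) and Ddx49 (0.842) in endothelial cells, and for Hk1 Tmem199 (0.899), Mrpl24 (0.894) and Tsen15 (0.894), and Phka2 (0.901), Zbtb14 (0.894) and Nxf1 (0.879). The highest of so many correlations over so few arrays are always high, and the arrays share treatment groups.

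Around these genes, the other glucose transporters gave 0 of 12 calls by limma in each of the 6 treatment comparisons, and 0 to 2 had an unadjusted p under 0.05. Between cell types 6 of the 12 were called higher in endothelial cells at 7 d, 2 at 21 d and 2 untreated, and none lower, where 40.0%, 32.0% and 18.3% of all genes were called in either direction. The differences of 11, 10 and 9 of the 12 were above 0, with medians of 0.37, 0.15 and 0.17. Slc2a13, a transporter of myo-inositol, was higher by 1.17 ± 0.32 at 7 d, 1.50 ± 0.26 at 21 d and 1.47 ± 0.34 untreated, and Slc2a10 by 0.66 ± 0.13, 0.55 ± 0.11 and 0.62 ± 0.14. Slc2a2, Slc2a4, Slc2a6 and Slc2a9 passed at 7 d alone, with differences of 0.46 to 0.58. Of the called genes, Slc2a2, Slc2a4, Slc2a9 and Slc2a10 were dim, with group means of 3.22 to 4.61, below the median gene. The brightest of the list, Slc50a1, was not called and went the other way. Its group means were 6.87 to 7.63 in endothelial cells and 8.03 to 8.43 in tumour cells. Of the 3 other glucose-phosphorylating enzymes measured, Hk3, Hkdc1 and Adpgk, 0 were called by limma after treatment, and 0 to 1 per comparison had an unadjusted p under 0.05. Hkdc1 was higher in endothelial cells by 0.45 ± 0.10 at 7 d, 0.30 ± 0.08 at 21 d and 0.32 ± 0.11 untreated, and was dim, with group means of 3.65 to 4.17. Hk3, dim as well, was higher at 7 d by 0.28 ± 0.10. The brighter Adpgk, an ADP-dependent glucokinase, was lower in endothelial cells at 21 d, with a difference of -0.51 ± 0.17 (adjusted p = 0.0300).

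Of the 19 regulators of glucose uptake and hexokinase, 0 passed limma's test after treatment in either cell type, and 2 to 5 per comparison had an unadjusted p under 0.05. Egln3, a hypoxia-induced prolyl hydroxylase, differed at 21 d by 2.12 ± 0.44 in endothelial cells (adjusted p = 0.635) and by 1.25 ± 0.29 in tumour cells (adjusted p = 0.160). Txnip, which restrains glucose uptake by GLUT1, was higher in endothelial than in tumour cells at 7 d (1.77 ± 0.25, adjusted p = 1.88e-05) and untreated (0.97 ± 0.26, adjusted p = 0.0125). Hif1a and Epas1, subunits of hypoxia-inducible factors, were higher in endothelial cells in all 3 states, Epas1 by 4.46 ± 0.33 at 7 d, 3.87 ± 0.28 at 21 d and 4.57 ± 0.36 untreated. Their partner Arnt was lower there, with differences of -1.03 ± 0.18 at 7 d and -0.86 ± 0.15 at 21 d. Among 11 enzymes at the branch points of glucose 6-phosphate 0 were called by limma after treatment (2 to 3 per comparison at an unadjusted p under 0.05). Between cell types Pgm2 was higher in endothelial cells and Gfpt1, Gys1 and Ugp2 were lower in all 3 states.

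Downstream, changes after treatment that passed were in tumour cells. In endothelial cells 0% of all 19938 genes passed in any treatment comparison, so where these calls fell is no result about the cell types. The median residual SD over genes was 0.255 in endothelial cells and 0.156 in tumour cells. Of 12 later glycolytic enzymes 2 rose at 21 d against untreated tumour cells, with a median difference of 0.57 over the list against -0.01 over all genes, of which 0.0903% were called. They were Pfkp, a phosphofructokinase (1.17 ± 0.17, adjusted p = 0.0397), and Aldoa, an aldolase (0.63 ± 0.09, adjusted p = 0.0281). Pfkp rose at 7 d as well (1.36 ± 0.18, adjusted p = 0.0114), where 0.507% of all genes were called. Of 13 hypoxia-induced genes outside glycolysis 1 rose at 21 d, Bnip3, a mitophagy receptor (2.24 ± 0.25, adjusted p = 0.00811), with a median of 0.45. With the replicate number as a block, none of the 3 calls at 21 d held: Pfkp differed by 1.01 (adjusted p = 0.141), Aldoa by 0.60 (adjusted p = 0.142) and Bnip3 by 2.11 (adjusted p = 0.0951). The labels do not say whether that number pairs samples. Leaving out each of the 12 tumour arrays in turn, the call at 21 d held 2 times for Pfkp, 7 times for Aldoa and 12 times for Bnip3, and the call of Pfkp at 7 d 12 times. In endothelial cells at 21 d the medians were 0.43 and 0.27, against 0.01 over all genes, and 0 of either list passed limma's test (4 of 12 and 2 of 13 at an unadjusted p under 0.05, against 4.18% of all genes). In tumour cells at 21 d 9 of 12 and 8 of 13 had an unadjusted p under 0.05, all of them higher, against 10.1% of all genes. The medians of the 4 genes described here were 0.29 in endothelial cells and 0.19 in tumour cells. In tumour cells immediate early genes averaged 9.37 to 9.80 at 7 d, 8.82 to 9.50 at 21 d and 8.68 to 9.05 untreated. With their mean as a covariate the calls of Pfkp were lost, at 1.22 at 7 d (adjusted p = 0.695) and 1.10 at 21 d (adjusted p = 0.143). Aldoa and Bnip3 at 21 d stayed past the threshold. At 7 d this covariate did not overlap with untreated cells and cannot be told apart from treatment, while at 21 d it overlapped in part.

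**Figure D4:**
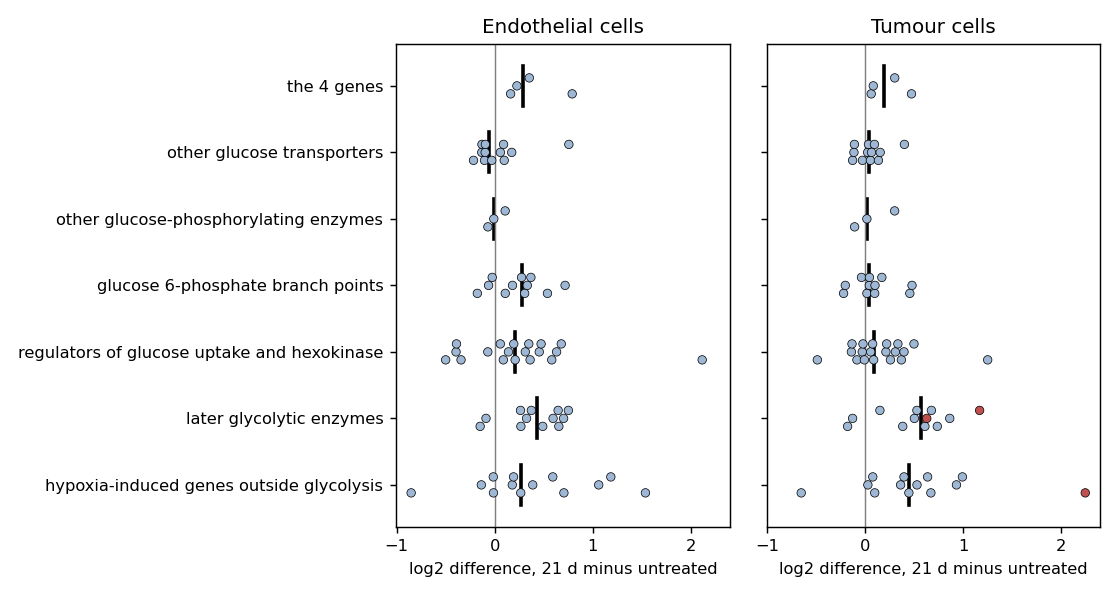
Log2 differences at 21 d minus untreated in endothelial cells (left) and tumour cells (right) for the 4 genes and 6 related lists, with genes as points and list medians as black bars. Red points passed limma's test at an adjusted p under 0.05: Pfkp, Aldoa and Bnip3, all in tumour cells. None of the 4 genes passed. Of all genes, 0% passed in endothelial cells and 0.0903% in tumour cells.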

How the data were processed

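The deposited values are log2 signals of 35556 transcript clusters on 23 arrays, which the authors made with RMA and the oligo package, per the submitters' processing notes; the sources used here give no versions of either. RMA equalises arrays, so differences are relative to other transcripts. The annotation named 1 gene for 21789 clusters, several for 1621 and none for 12146. Symbols were updated through RefSeq (GRCm38.p6, 21698 clusters matched). For 999 genes with several clusters the one with the highest mean was kept, which left 19938 genes with no filter on dim ones.

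Tests used limma 3.58.1 in R 4.3.3, two-sided, with Benjamini-Hochberg adjustment over all 19938 genes and a threshold of 0.05: 12 tumour arrays in one fit, 11 endothelial arrays in another and 23 arrays for contrasts of cell types. Errors are standard errors unless called SD. Exact permutation tests used scipy 1.17.1. The number of arrays limits the precision. The genes, lists and tests were chosen with earlier results of these data known. Named genes are the 4 genes, list members called or needed to describe a count, and the 3 genes most correlated with each gene among those brighter than the median. Alternatives covered filters, normalization, weights, clusters, covariates, the replicate number and leaving out each array.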

Additional observations from a re-analysis of the deposited data

Results flagged for a closer look

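In tumour cells at 7 d, Hk2 on replicate 3 was 5.17, far below the other 3 arrays of its group, which lay between 5.40 and 5.42. Of 12 sets of a gene and a group with enough arrays for Dixon's test, 1 was picked out in this way, about as many as chance gives.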

How the results depend on the processing

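Of 1232 alternative values of the differences of the 4 genes 1178 kept their direction and side of the threshold, 40 changed direction, 4 lost a call and 10 gained one. No treatment comparison of the 4 genes gained a call. Where a difference is near 0, a change of direction carries little.

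For Slc2a1, 21 d minus 7 d in tumour cells was -0.0094 with renewed quantile normalization, -0.0169 with macrophage markers and -0.0044 with immediate early genes as a covariate, and endothelial minus tumour untreated was -0.13 with the immediate early genes. For Hk1, by the cluster with RefSeq transcripts (added after seeing the data), tumour differences were 0.0678 at 7 d and -0.0005 at 21 d against untreated and -0.0683 between 21 d and 7 d. By that cluster, endothelial cells gave 0.0187 at 7 d and 0.0094 against tumour cells at 21 d. Immediate early genes as a covariate gave Hk1 0.15 in tumour and 0.0186 in endothelial cells at 7 d, and quantile normalization -0.0073 in tumour cells at 21 d and 0.0647 for the difference of effects at 7 d. Endothelial minus tumour Hk1 at 21 d was 0.0267 with array weights, 0.0024 with the mean of clusters, 0.0572 with quantile normalization and 0.0109 without arrays high in macrophage markers. Hk2 at 7 d was -0.30 in tumour cells with the immediate early covariate and 0.0236 in endothelial cells with the macrophage covariate. Hk2 minus Hk1 in endothelial cells, 21 d minus 7 d, was 0.15 with the mean of clusters and 0.31 by the RefSeq cluster, which gave -0.0264 at 7 d against untreated.

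Of the 4 genes, 1 passed between cell types untreated with a filter at the 30th percentile, array weights, quantile normalization or median centring. With the immediate early covariate 1 passed at 7 d, and with array weights 2 at 21 d. A filter at the 50th percentile removed Slc2a3. The causes of these changes were not tested.

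Leaving out 1 array at a time, the number passing between cell types was 0 to 1 untreated and 1 to 2 at 21 d. Between cell types at 7 d, Slc2a1 lost its call without endothelial 7 d replicate 3 (0.40, limma adjusted p = 0.172). Slc2a1 ranged from -0.0478 to 0.0471 for 21 d minus 7 d in tumour cells, from -0.77 to 0.28 in endothelial cells and from -0.0270 to 0.32 between untreated cell types. Hk1 ranged from -0.15 to 0.0101 at 7 d and -0.0238 to 0.15 at 21 d in tumour cells, and -0.39 to 0.15 at 7 d in endothelial cells. Between cell types Hk1 ranged from -0.49 to 0.0573 at 7 d, -0.14 to 0.0909 at 21 d and -0.32 to 0.23 for the effect at 7 d. Hk2 at 7 d ranged from -0.0172 to 0.42 in tumour cells and -0.0933 to 0.10 in endothelial cells, and the difference of effects from -0.42 to 0.0095 at 7 d and -0.36 to 0.0702 at 21 d. Hk2 minus Hk1 in endothelial cells ranged from -0.16 to 0.45 at 7 d, -0.0864 to 0.28 at 21 d and -0.32 to 0.29 for 21 d minus 7 d. Slc2a3 minus Slc2a1 ranged from -0.36 to 0.0198 in tumour cells at 21 d, and from -0.58 to 0.62 for 21 d minus 7 d in endothelial cells. Between cell types it ranged from -0.19 to 0.19 untreated and -0.89 to 0.32 at 7 d.

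The labels do not say whether equal replicate numbers mark paired samples. Deviations of same-numbered samples correlated between -0.149 and 0.112 within endothelial cells and between -0.102 and 0.082 within tumour cells. Between the cell types in the same treatment state, 11 such pairs correlated between -0.11 and 0.064. Low correlations cannot show that samples were unpaired, and the main tests treat all samples as independent. With the replicate number as a block, Slc2a1 between cell types at 7 d was 1.06 (adjusted p = 0.0530), and genes called at 21 d against untreated tumour cells were 2 instead of 18. Over all alternatives that count was 2 to 30, and at 7 d 1 to 127 against 101. Between 21 d and 7 d in tumour cells 17 to 357 genes passed against 243. In endothelial cells 0 to 106 passed at 7 d, 0 to 34 at 21 d and 0 to 262 between them, and for the difference of effects 0 to 138 at 7 d and 0 to 5 at 21 d.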
